A study of Mus musculus with 54 samples.

Results

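The small intestine changes along its length, and 9 genes that mark this change are described here across single cells and sorted crypt cells of the mouse. Genes were taken by name and not by a cutoff on measured values, but earlier results of these data were known when they were chosen. The ileal genes are 5, Fabp6, Slc10a2, Slc51a, Slc51b and Fgf15, and the proximal genes are 4, Gata4, Onecut2, Lct and Slc40a1. All 9 are protein coding and were found among the 27998 genes of the single-cell matrices and among the 48440 entries of the mRNA table.

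Bile acids are taken up again in the ileum, the last stretch of the small intestine, and the ileal genes encode the steps of that uptake. Slc10a2 is the bile acid transporter of the brush border, Fabp6 binds bile acids inside the cell, and Slc51a and Slc51b encode the subunits of the transporter that releases them toward the blood. Fgf15 is a hormone made by ileal enterocytes under the bile acid receptor FXR (gene Nr1h4), and it lowers bile acid synthesis in the liver. Among the proximal genes, Gata4 is a transcription factor that keeps jejunal genes on and ileal genes off, Onecut2 is a transcription factor of the upper intestine, Lct is lactase and Slc40a1 is the iron exporter ferroportin.

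Single intestinal cells came from mice 12 months old of strain C57BL6/2J, as 2 wild-type samples (WT, sets 1 and 2) and 2 samples of miR-375 knockout mice (KO, sets 1 and 2). The mRNA libraries came from crypt cells of C57BL/6J mice sorted as Sox9-EGFP Low, meaning a weak signal of a green fluorescent Sox9 transgene, with 4 libraries each from mice on chow, on a high fat diet, germ-free and conventionalized. Conventionalized means that mice born germ-free were given a microbiota, and this group is compared with the germ-free mice here. The labels give neither the number of animals behind a sample, nor the age and sex of the crypt cell donors, nor the diet of the germ-free and conventionalized mice, nor the stretch of intestine taken. Nothing says whether samples of a group came from separate animals, so the p-values below measure only the spread between samples, which may be technical.

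The single-cell samples held 24533466 to 70409055 UMIs (counted molecules), and 1185 and 3156 WT cells and 1229 and 3149 KO cells were kept in sets 1 and 2. Set 2 stood apart in quality, with a median of 40.9% (WT) and 37.9% (KO) mitochondrial UMIs over all barcodes, against 5.9% and 5.62% in set 1. Pairs of samples shared at most 3 cell barcodes. Most epithelial cells fell into enterocyte-like, goblet-like, Paneth-like, stem-like, cycling, enteroendocrine-like and tuft-like classes, and set 2 also held 2145 T lymphocyte-like cells. In set 2, 130 WT and 153 KO epithelial cells belonged to clusters that could not be named. Enterocyte-like cells numbered 384 in WT set 1, 752 in WT set 2, 233 in KO set 1 and 991 in KO set 2. The matrices hold no entry named Mir375, so the knockout could not be checked in them. Among the mRNA libraries, the deposited values correspond to an estimated 6823602 to 21804230 reads. In the small RNA data of the same mice, column names call the mouse of chow library 3 high fat and that of high fat library 3 chow. The labels of the mRNA libraries were followed, and the diet comparison is also given without both.

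In the genome (GRCm38, GENCODE M21), Slc10a2 lies at chr8:5083219-5105351, Fabp6 at chr11:43596049-43601540, Slc51a at chr16:32474504-32487879 and Slc51b at chr9:65412714-65422955, all on the minus strand. Fgf15 lies on the plus strand at chr7:144896531-144900953. Of the proximal genes, Gata4 (chr14:63198922-63271692), Lct (chr1:128284756-128328318) and Slc40a1 (chr1:45908068-45926523) are on the minus strand.

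The promoters of an ileal and of a proximal member are shown because they carry motif letters of factors named in this field. Each line gives the 250 bases before the RefSeq start (GRCm38.p6), read 5′ to 3′ on the gene's own minus strand. The Fabp6 window lies at chr11:43601563-43601812 and the Lct window at chr1:128328319-128328568. In Fabp6 the capitals mark an inverted repeat of the kind bound by FXR and the TATA letters TATAAA, which lie on the opposite strand, and in Lct they mark GATA motifs, the letters read by GATA factors.
Fabp6: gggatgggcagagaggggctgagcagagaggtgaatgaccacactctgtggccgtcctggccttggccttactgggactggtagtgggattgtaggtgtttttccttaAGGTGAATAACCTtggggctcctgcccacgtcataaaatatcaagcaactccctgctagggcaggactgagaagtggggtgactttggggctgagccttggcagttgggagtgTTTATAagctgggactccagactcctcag
Lct: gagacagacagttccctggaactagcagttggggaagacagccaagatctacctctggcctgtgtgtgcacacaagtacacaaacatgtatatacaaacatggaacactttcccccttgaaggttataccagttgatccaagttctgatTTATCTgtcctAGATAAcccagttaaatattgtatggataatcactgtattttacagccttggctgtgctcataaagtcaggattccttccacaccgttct

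Distances are counted from the RefSeq start, which for Fabp6 lies upstream of the GENCODE gene given above. The inverted repeat of Fabp6 starts 142 bases before the start. It matches a loose form of the FXR inverted repeat, in which a base of each arm is left free, and 6 of 32851 promoter windows hold that form, or 0.0183%. The strict repeat is in 2 windows and in none of the 5 members with an entry, which are Fabp6, Slc10a2, Slc51a, Slc51b and Lct. The GATA letters AGATAA, searched on both strands, start 101 and 90 bases before the Lct start and are in none of the other 4 windows. Of all windows, 9.99% hold that motif, and 12.4% hold TATAAA, found in Fabp6 at 29 bases before the start. The nuclear receptor letters AGGTCA, in 14% of windows, are in Slc51a and Slc51b. These matches describe letters in a window and were not measured as binding.

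Most ileal members were genes of enterocytes, while Gata4 and Onecut2 were spread over the epithelium. Of all epithelial UMIs of Fabp6, enterocyte-like cells held 96.4% in WT set 1, 96.6% in WT set 2, 95.5% in KO set 1 and 93.9% in KO set 2. Lct was as concentrated, with 96.8% to 99% of its UMIs in those cells, and Slc51b ranged from 84.2% to 94.9%. For Gata4 the share was 19.5% to 59.6%, and for Onecut2 13.7% to 41.6%. Enterocyte-like cells were 33.1%, 45.9%, 19.4% and 44.1% of the epithelial cells of WT set 1, WT set 2, KO set 1 and KO set 2. In the same order they held 35.6%, 59.6%, 19.5% and 55.9% of the Gata4 UMIs. The unnamed epithelial cells of set 2 held 1.17% (WT) and 5.07% (KO) of the epithelial Fabp6 UMIs.

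Levels are given as CPM, the UMIs of a gene scaled to the total UMIs of the summed cells of a class and sample. Among members, Fabp6 had the highest enterocyte level, between 611 and 2619 CPM over the 4 samples, and Slc51a lay at 295 to 384 CPM. Lct ranged from 91.2 to 345 CPM and Slc51b from 204 to 234 CPM, so that these neighbours overlapped. Gata4 lay at 39.1 to 52.1 CPM in enterocyte-like cells and at 38.6 to 54.5 CPM in cycling cells, which do not differ beyond their spread. Among epithelial classes Gata4 was lowest in Paneth-like cells, at 1.91 to 4.57 CPM.

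Onecut2 was highest in enteroendocrine-like cells, the hormone-making cells of the gut, at 82.5, 122, 93.3 and 219 CPM in WT set 1, WT set 2, KO set 1 and KO set 2. Stem-like cells followed with 58.3 to 92 CPM, a range that overlaps the enteroendocrine one, and enterocyte-like cells held 30.1 to 49.2 CPM. Slc40a1 was low everywhere: its enterocyte level was 1.82 to 5.45 CPM and its enteroendocrine level 2.06 to 14.8 CPM. Slc10a2 and Fgf15 were rare even in enterocyte-like cells, at 2.33 to 7.58 CPM and 0.997 to 8.37 CPM.

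**Figure D1:**
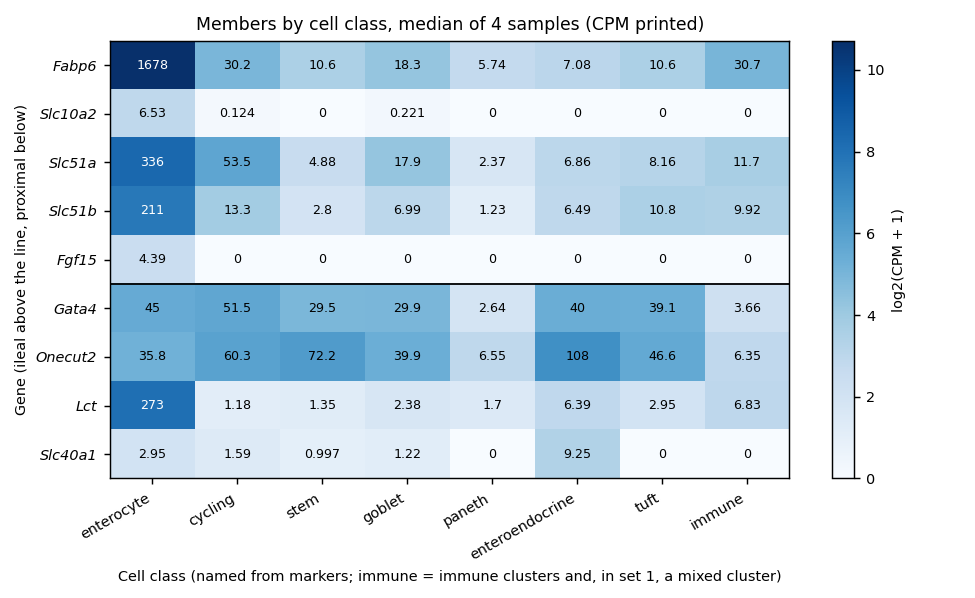
Level of each member by cell class, as the median CPM of 4 samples printed in each cell, with colour on a log2(CPM + 1) scale. Fabp6, Slc51a, Slc51b and Lct are dark in enterocyte-like cells, while Gata4 and Onecut2 fill most epithelial classes and Slc40a1 is pale in all of them. The immune column includes the mixed cluster of set 1.

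Fabp6 UMIs also appeared in immune cells, which should lack the gene. In set 1 the cells used for this check are a mixed cluster led by immune genes such as Jchain and Gzma, with 336 CPM of Epcam beside 138 CPM of Ptprc. After every cell was thinned to 2000 UMIs, 4.43% (WT set 1), 18.8% (WT set 2), 16.3% (KO set 1) and 12.7% (KO set 2) of enterocyte-like cells held a Fabp6 UMI. Before thinning, 50 of 384, 278 of 752, 64 of 233 and 288 of 991 cells did. A Fabp6 UMI was in 0 of 26 and 0 of 28 such cells of WT and KO set 1 (exact binomial upper limits 13.2% and 12.3%, counting error only), and in 8.41% and 15.7% of the immune cells of set 2, at median depths of 2959 and 2368.5 UMIs against 24462 and 17064 in the enterocyte-like cells. In KO set 2 the immune share was above the enterocyte share, so a cell with a few Fabp6 UMIs in set 2 is read here as background. A level of at least 5 Fabp6 UMIs in 2000 was seen in 2 of 1157 (WT) and 0 of 488 (KO) T lymphocyte-like cells of set 2, and in 9.21% and 7.31% of enterocyte-like cells there. Outside the enterocyte-like cells the highest count in a cell was 6 and 212 UMIs in WT sets 1 and 2 and 67 and 2270 in KO sets 1 and 2. The cell with 2270 was in cluster 9 of set 2, an unnamed epithelial cluster with 13 enterocyte and 7 goblet markers raised, so it is not read as background. That cluster had a median of 51349 UMIs, beside 18190.5 to 23709 in the enterocyte-like clusters of set 2. Whether it holds doublets (2 cells under 1 barcode) was not tested.

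Fabp6 divided the enterocyte-like cells unevenly, and the other members followed it in part. Cells with at least 5 Fabp6 UMIs in 2000, called Fabp6-rich here, numbered 10 in WT set 1, 68 in WT set 2, 19 in KO set 1 and 71 in KO set 2, and held 3553 of 3681, 32577 of 35206, 5607 of 5831 and 51460 of 52905 Fabp6 UMIs. Cells with none in 2000, called Fabp6-free, numbered 367, 599, 195 and 848. The split was made on Fabp6 after its values were known, so the levels below are a description with no test. Rich and free cells had similar depths, for example 24950 against 24445 median UMIs in WT set 2.

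Slc10a2, the uptake transporter, was found mostly with Fabp6: rich cells held 10 of 14, 116 of 160, 15 of 25 and 98 of 118 of its enterocyte UMIs. In Fabp6-rich cells it stood at 58.6 (WT set 1), 53 (WT set 2), 52.1 (KO set 1) and 63.1 CPM (KO set 2), and in Fabp6-free cells at 0.525, 1.84, 1.81 and 0.968 CPM. Every rich value was above every free value, but in WT set 1 only 3 cells held 10 of the 14 enterocyte Slc10a2 UMIs. Fgf15, the hormone of the set, stood at 35.2, 11.9, 34.7 and 90.8 CPM in rich cells, against 0, 0.168, 4.35 and 0.626 CPM in free cells, where 3 UMIs would be 0.525, 0.168, 1.09 and 0.171 CPM. The rich values again lay above all free values, but they rest on few cells: 3 cells held 6 of 6 enterocyte Fgf15 UMIs in WT set 1 and 53 of 169 in KO set 2. Rich cells held 6 of 6, 26 of 47, 10 of 22 and 141 of 169 of these UMIs. In KO set 1 the free cells held 12, more than the rich cells, and in WT set 2 cells with 1 to 4 Fabp6 UMIs held 18.

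Slc51a and Slc51b, the exporter subunits, were present in both kinds of cell at different levels. Slc51a stood at 745, 727, 879 and 1054 CPM in rich cells and at 282, 300.2, 265 and 324 CPM in free cells of WT set 1, WT set 2, KO set 1 and KO set 2. Slc51b stood at 487, 476, 531 and 714 CPM against 203, 183, 171 and 192 CPM. Rich and free values did not overlap for either gene, with median log2 differences of 1.55 and 1.5.

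The proximal transcription factors had the opposite order. Onecut2 stood at 11.7, 1.37, 0 and 0 CPM in rich cells, where 3 UMIs would be 17.6, 1.37, 10.4 and 1.93 CPM, and at 31, 39.8, 46 and 54.9 CPM in free cells. In set 1 the rich cells were few, so a level near 10 CPM could not be told from 0 there. Gata4 stood at 17.6, 20.1, 17.4 and 20.6 CPM in rich cells and at 50, 42.9, 55.8 and 43.2 CPM in free cells, again without overlap. Its rich values came from 3, 44, 5 and 32 UMIs, so those of set 1 rest on very few UMIs. Lct was lower in the rich cells of each sample, at 129, 18.8, 212 and 40.6 CPM against 330, 108, 364 and 249 CPM, but the ranges overlapped across samples. Slc40a1 held 0 to 7.32 CPM in rich and 1.45 to 4.92 CPM in free cells and showed no common direction.

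**Figure D2:**
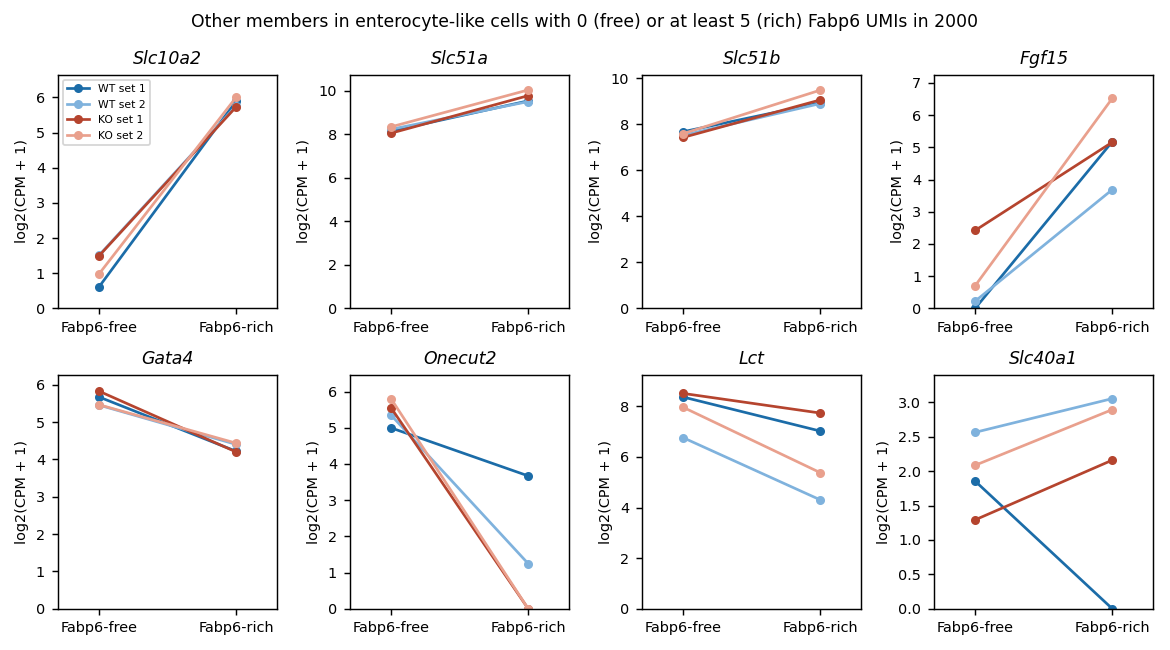
The other 8 members in Fabp6-free and Fabp6-rich enterocyte-like cells, on a log2(CPM + 1) axis, with a line for each of the 4 samples. Slc10a2 and Fgf15 climb steeply, Slc51a and Slc51b climb from a high start, Gata4, Onecut2 and Lct go down in each sample, and Slc40a1 goes both ways.

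Over all genes with a mean of at least 20 CPM, 20 of 4788 (0.418%) were at least 2-fold higher in the rich cells of all 4 samples and 21 (0.439%) at least 2-fold lower. Slc51a and Slc51b, which were above 20 CPM in both kinds of cell, were among the higher ones. Slc10a2 and Fgf15 reached that mean only through the rich cells, and Gata4 and Onecut2 through the free cells, so their place past the 2-fold limit was in part fixed by the filter and nothing is read from it. Gata4 lay near the limit and missed it in 2 further random thinnings, in which Slc51a and Slc51b passed. With rich cells defined by at least 2 Fabp6 UMIs, Slc51a and Slc51b were not 2-fold apart in every sample, with median log2 differences of 1.32 and 1.21.

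Genes fixed as lists were read in the same cells. Of 19 measured genes of nutrient uptake in the upper intestine, 4 were at least 2-fold lower in all samples: Fabp1 and Apoa4, genes of fat handling, the sugar transporter Slc2a2 and the glutathione transferase Gsta1. The list had a median log2 difference of -0.81, beside -0.04 for all genes. Its members Enpep and Npc1l1 went the other way in each sample, with median log2 differences of 0.42 and 0.29. Fabp1 stood at 2240, 519, 2476 and 640 CPM in rich cells and at 21330, 7312, 15220 and 20420 CPM in free cells of WT set 1, WT set 2, KO set 1 and KO set 2. Of 10 measured distal genes, Naaladl1, Tmigd1 and Guca2a were at least 2-fold higher in all samples, with Tmigd1 at 111, 101, 257 and 134 CPM against 4.9, 8.83, 14.5 and 7.74 CPM. Tmigd1 also reached a mean of 20 CPM through the rich cells, so no share of this list is read.

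No measured gene of the 12 of bile acid handling and FXR passed that limit, nor did any of 9 iron genes. The receptor Nr1h4 itself stood at 29.3 to 95.1 CPM in rich and 33.6 to 43.1 CPM in free cells. Cybrd1, the iron reductase of the duodenum, was at 0 in all rich cells and at most at 0.171 CPM in free cells. Among 11 measured regional transcription factors only Zfpm1, a partner of GATA factors, was at least 2-fold lower in all samples. Zfpm1 stood at 6.95 to 14.8 CPM in rich and 25.8 to 34.2 CPM in free cells. It reached a mean of 20 CPM only through the free cells, so nothing is read from its place. Gata6, a relative of Gata4, stood at 20.8 to 48.5 CPM in rich and 52.5 to 96.2 CPM in free cells. The summed level of 13 enterocyte markers was higher in rich cells of set 1 (44150 against 34210 CPM in WT, 48840 against 33680 in KO) but not of set 2 (18310 against 18530 in WT, 22290 against 30280 in KO), and its part in these differences was not tested.

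Clusters made without any of these genes showed the same members from another side. In each set the enterocyte-like cells formed 4 clusters, and Fabp6 was highest in 1 of them: cluster 0 of set 1 (97 cells, 6469 CPM) and cluster 8 of set 2 (308 cells, 7050 CPM). These clusters also had the highest levels of Slc10a2 (22.6 and 25.3 CPM), Fgf15 (19.7 and 25.1 CPM), Slc51a (588 and 649 CPM) and Slc51b (350 and 431 CPM) among the enterocyte-like clusters. Lct was also found in them, at 514 and 161 CPM.

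At the other end, cluster 5 of set 1 (148 cells) and cluster 10 of set 2 (474 cells) had 7.37 and 12.8 CPM of Fabp6, no Fgf15 UMI, and the highest Lct levels, 753 and 491 CPM. Slc51a was still at 304 and 384 CPM in them and Slc51b at 284.5 and 293 CPM. The exporter subunits were thus found in enterocyte-like cells with and without Fabp6, which differs from a strictly ileal pattern. Gata4 varied little between the 8 clusters, from 35.8 to 56.9 CPM.

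**Figure D3:**
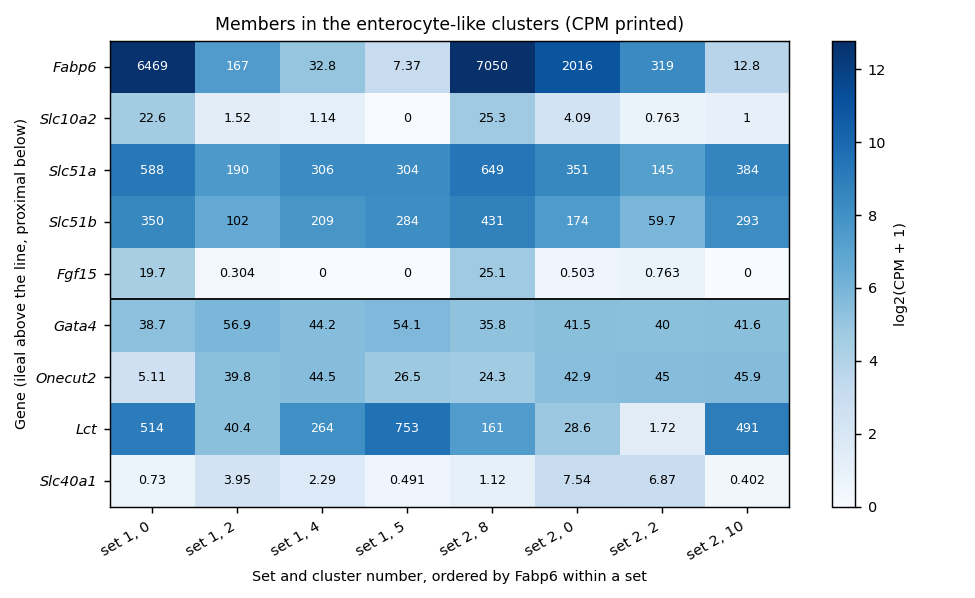
Members in the 8 enterocyte-like clusters, 4 of each set, ordered by Fabp6 within a set, with CPM printed and colour on a log2(CPM + 1) scale. Fabp6, Slc10a2 and Fgf15 are highest in the same cluster of each set, while Fabp6 is also at 2016 CPM in cluster 0 of set 2, and Slc51a and Slc51b stay dark in the Lct-high clusters at the right of each set.

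Over clusters with at least 20 cells, 17 in set 1 and 20 in set 2, the pattern of each member was compared with the other members and with 4698 genes at a mean of at least 20 CPM by the Pearson correlation of log2(CPM + 1), averaged over the sets. Clusters of a set share their libraries, so these values are descriptions. Slc10a2 and Fgf15 were most like each other (0.92) and next most like Fabp6 (0.88 and 0.85). Fgf15 had no UMI in most clusters, so its values rest largely on cluster 0 of set 1 and cluster 8 of set 2 (19.7 and 25.1 CPM). Slc51a and Slc51b stood at 0.94 with each other and at 0.73 and 0.70 with Fabp6. The genes nearest Slc51a were Ces2e (0.98), Arg2 and Apol10a (both 0.97), and those nearest Slc51b were Reg3a (0.97), Creb3l3 and Mep1b (both 0.96). Among the 4698 genes, which hold neither Slc10a2 nor Fgf15, those nearest Fabp6 were Slc51a, Slc51b and Reg3b (0.70), and for Fgf15 the next were Aspa (0.61) and Reg3b (0.59).

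Lct was nearest to Asah2 (0.97), the apolipoprotein gene Apoa1 (0.94) and Slc2a2 (0.93). Gata4 was nearest to Sgpp2 (0.96), the nuclear receptor gene Hnf4a and Hook2 (both 0.94), and it stood at 0.81 with Onecut2. Onecut2 was nearest to Ptprk (0.90), Hacd1 (0.88) and Tmem51 (0.87). Slc40a1 had no close partner, with Sdccag8 (0.75), Mlxipl (0.74) and Qdpr (0.73) ahead. Lct and Slc51b, a proximal and an ileal member, stood at 0.86.

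The knockout comparison asked whether loss of miR-375, a microRNA, went with a change of these genes. No member tested in a class was called with edgeR's quasi-likelihood test on UMI sums of 2 WT against 2 KO samples (adjusted p under 0.05). All members were tested in enterocyte-like and in all epithelial cells. Of the 5 ileal members, 0 were tested in enteroendocrine-like and tuft-like cells, 2 in Paneth-like and stem-like and 3 in cycling and goblet-like cells. Of the 4 proximal members, 2 were tested in cycling, enteroendocrine-like, stem-like and tuft-like cells and 3 in Paneth-like cells. In enterocyte-like cells 0 of 10902 genes were called (0%), 101 had an unadjusted p under 0.05, and DESeq2 called 5. In all epithelial cells the count was 0 of 13003 (0%), with 97 at an unadjusted p under 0.05 and 7 by DESeq2. The member values below are therefore reported without a call. With 2 samples against 2, groups often fail to overlap by chance. The share of all genes whose groups did not overlap was not counted, so nothing is read from such an order.

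Fgf15 had the largest difference of the members in enterocyte-like cells. Its level was 0.997 and 2.12 CPM in WT sets 1 and 2 and 6.67 and 8.37 CPM in KO sets 1 and 2, from 6, 47, 22 and 169 UMIs. Within sets 1 and 2 the log2 difference was 2.74 and 1.98. Both KO values lay above both WT values, with a log2 difference of 2.24 (SE 0.44) and an edgeR adjusted p of 1. The adjusted p was 0.222 with the set as a block and 0.372 in DESeq2, and it was 0.00692 when no filter on low counts was applied. The number of cells with a UMI was 3 and 18 in WT and 9 and 42 in KO.

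Fabp6 was at 611 and 1587 CPM in WT and at 1768 and 2619 CPM in KO enterocyte-like cells. The groups did not overlap, but WT set 2 and KO set 1 were close, and the log2 difference of 1.05 (SE 0.47) had an edgeR adjusted p of 1. Within sets 1 and 2 it was 1.53 and 0.72. Fabp6-rich cells were 2.6% and 8.15% of WT and KO cells in set 1, but 9.21% and 7.31% in set 2. Within rich cells, Fabp6 stood at 20830 and 19470 CPM in WT and KO set 1 and at 14900 and 33150 CPM in set 2. The share of rich cells was thus larger in KO in set 1 only, and their level in set 2 only. In set 1 the 3 cells richest in Fabp6 held 2467 of 3681 (WT) and 3287 of 5831 (KO) enterocyte Fabp6 UMIs. The set 1 levels and their difference thus rest largely on few cells. In set 2 the 3 richest cells held 6373 of 35206 (WT) and 11250 of 52905 (KO). A single KO cell of set 2 held 4760 Fabp6 UMIs.

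The other ileal members lay closer together. Slc10a2 was at 2.33 and 7.21 CPM in WT and 7.58 and 5.84 CPM in KO, with opposite directions in the sets. Slc51a was at 295 and 347 CPM in WT and 326 and 384 CPM in KO, and Slc51b at 211 and 212 against 204 and 234 CPM. Their log2 differences of 0.17 (SE 0.23) and 0.08 (SE 0.22) were smaller than their errors.

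Of the proximal members, Onecut2 was at 30.1 and 32.8 CPM in WT and at 38.8 and 49.2 CPM in KO enterocyte-like cells. The groups did not overlap and the log2 difference was 0.51 (SE 0.21), with an edgeR adjusted p of 1. Lct was at 320 and 91.2 CPM in WT and at 345 and 227 CPM in KO, where WT set 2 stood below the other 3 samples. Gata4 was at 48.8 and 39.1 against 52.1 and 41.2 CPM, and the sets differed more than the genotypes. Slc40a1 was at 2.49 and 5.45 against 1.82 and 3.42 CPM, from 6 to 121 UMIs.

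**Figure D4:**
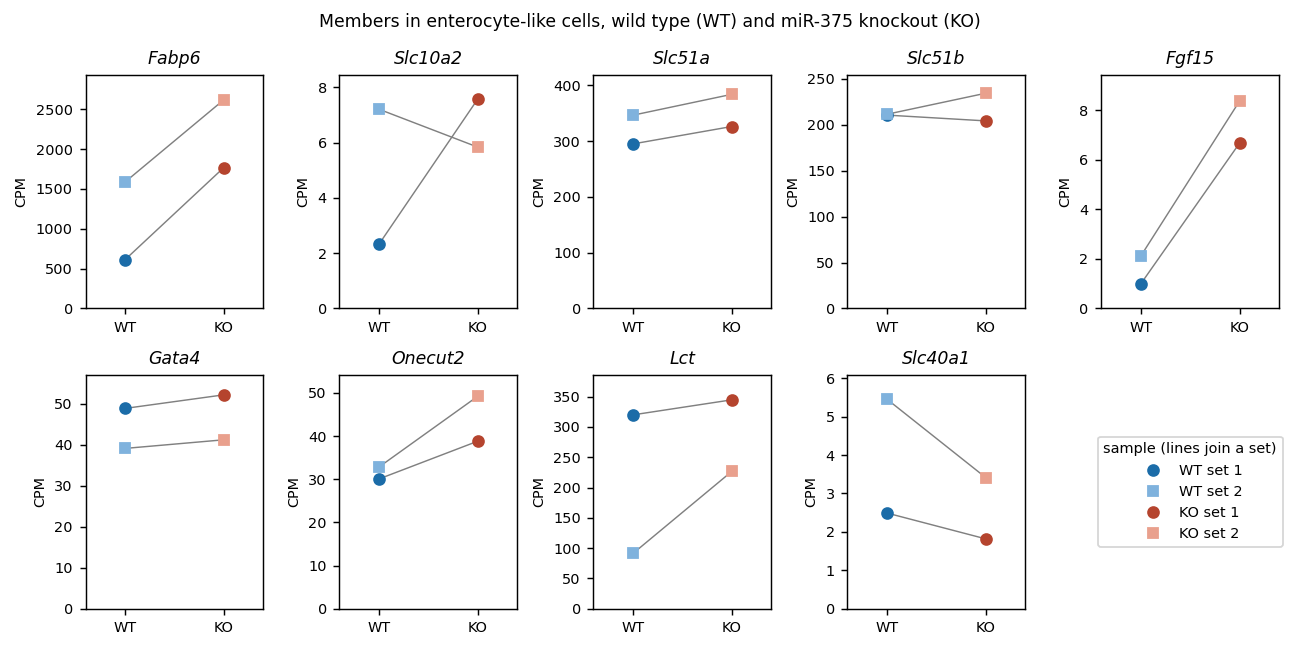
Members in enterocyte-like cells of the 2 WT and 2 KO samples, as CPM on axes that start at 0, with lines joining the samples of a set. Fgf15, Fabp6 and Onecut2 are higher in both KO samples, Slc10a2 crosses between the sets, and none of these differences was called. The share of all genes with such an order was not counted.

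As a list in enterocyte-like cells, the 5 ileal members had a median log2 difference of 0.47 and the 4 proximal members of 0.28, beside 0.003 for all genes tested. All 5 ileal and 3 of the 4 proximal differences were above 0. Of the other lists, 13 of 15 tested genes of bile acid handling and FXR, 17 of 21 of upper intestinal nutrient uptake, 12 of 16 regional transcription factors, 9 of 13 iron genes and 8 of 12 distal genes were above 0, and none was called. In all epithelial cells 3 of 5 ileal and 3 of 4 proximal members were above 0, as were 7 of 16 bile acid, 14 of 23 nutrient, 19 of 23 transcription factor, 7 of 14 iron and 4 of 13 distal genes. The makeup of the class moved as well: cluster 0 held 7.03% of WT and 30% of KO enterocyte-like cells in set 1, and cluster 8, also high in Fabp6, 19.8% and 16% in set 2. The Lct-high clusters held 28.9% of WT and 15.9% of KO cells in set 1 (cluster 5) and 13.2% and 37.8% in set 2 (cluster 10), so neither kind went the same way in both sets. These shares come from 1 sample per genotype and set, and their part in the differences was not tested.

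The mRNA libraries asked whether the microbiota or the diet went with a change of the members in sorted crypt cells. In bulk RNA fewer cells of a type and less RNA per cell cannot be told apart. Values are normalized counts, tested with limma on log2(value + 1), 4 libraries against 4. No member was called in any of the 3 comparisons, while 453 of 20214 genes were called between germ-free and conventionalized mice (2.24%, with 1.95% higher in germ-free), 135 of 16421 between high fat and chow (0.822%) and 17 of 17941 between conventionalized and chow (0.0948%). At an unadjusted p under 0.05 there were 4072, 4383 and 2017 genes. The conventionalized and the chow libraries each enter 2 of the comparisons. Without the chow and high fat libraries of conflicting names, 12 of 16125 genes and no member were called.

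The sorted cells were checked against markers. Epcam, an epithelial gene, stood at 14070 to 37730 normalized counts and Sox9 at 2146 to 6705, while Ptprc of immune cells stood at 22.5 to 328. Summed markers of 4 cell classes did not overlap between germ-free and conventionalized libraries. The cycling sum was 4442 to 23340 in germ-free and 31430 to 43960 in conventionalized libraries, and the myeloid sum 140 to 375 against 428 to 550. The enteroendocrine sum was 498500 to 1069000 against 112500 to 279600, and the stromal or endothelial sum 1191 to 2113 against 389 to 778. The stem, enterocyte, goblet, Paneth, tuft, T lymphocyte and B or plasma cell sums overlapped. Chow libraries had tuft sums of 15140 to 33280 and enteroendocrine sums of 345600 to 1124000, above all high fat (1760 to 9059 and 90200 to 242300) and all conventionalized libraries (1291 to 12320 and 112500 to 279600), and their T lymphocyte sums of 150.5 to 405 were above the 74.8 to 114 of high fat libraries. The part of this makeup in the member values was not tested.

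Gata4 was the only member whose groups did not overlap in a comparison. Over all genes tested, 6.26% did not overlap with germ-free higher and 6.21% with germ-free lower, 8.81% and 7.36% with high fat higher and lower than chow, and 2.17% and 4.38% with conventionalized higher and lower than chow. It stood at 2002, 1498, 1328 and 1556 in the conventionalized libraries 1 to 4 and at 1060, 1121, 640 and 1303 in the germ-free libraries. All germ-free values were below all conventionalized values, as were the cycling and myeloid marker sums. The means were 1596 ± 287 and 1031 ± 281 (SD, n = 4), the log2 difference was -0.66 (SE 0.27), and the limma adjusted p was 0.208. By an exact permutation test, two-sided, p = 0.0286, and 4 against 4 libraries allow no smaller value. On chow Gata4 stood at 1398, 1493, 1302 and 1200, and on the high fat diet at 2336, 2022, 1460 and 1438, with overlap and a limma adjusted p of 0.177.

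Onecut2 had the higher mean in germ-free libraries. Its values were 317, 311, 473 and 522 in germ-free and 169, 367, 386 and 157 in conventionalized libraries. The groups overlapped, with a log2 difference of 0.67 (SE 0.36) and a limma adjusted p of 0.303. Chow libraries held 166, 311, 214 and 166 and high fat libraries 244, 207, 190 and 332.

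Fabp6 varied widely within groups. It stood at 601, 444, 115 and 491 on chow, at 1140, 211, 41.3 and 82.3 on the high fat diet, at 412, 86.5, 27.5 and 232 in conventionalized and at 112, 73.4, 32.9 and 0 in germ-free libraries. The mean on the log2 scale was highest on chow and lowest in germ-free mice, with overlap in each comparison. The log2 difference of germ-free and conventionalized mice was -2.43 (SE 1.29, limma adjusted p 0.299), that of conventionalized and chow mice -1.5 (SE 0.75, adjusted p 0.479) and that of high fat and chow mice -1.04 (SE 0.91, adjusted p 0.508).

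Slc51a was far higher in 3 libraries than in the rest. Conventionalized library 1 held 2110 and the high fat libraries 1 and 2 held 2153 and 1639, while the other 13 libraries held 21.9 to 506. The same 3 libraries were highest for Gata4, and Slc51b stood at 231, 206 and 154 in them against at most 113 elsewhere. Lct stood at 300.3, 222 and 306, next to 200.4 in germ-free library 1 and 191 in chow library 3. Their goblet marker sums were 604000, 323800 and 254000, beside 22950 to 263100 in the other 13, and their enterocyte sums 83320, 97050 and 93780, beside 28770 to 85270. The part of this makeup in the values was not tested.

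No group difference of these genes was called. Slc51a had a log2 difference of -1.73 (SE 0.90) between germ-free and conventionalized mice and of 0.92 (SE 0.79) between high fat and chow mice, with limma adjusted p-values of 0.291 and 0.497. For Slc51b and Lct the limma adjusted p was between 0.341 and 0.999 in all 3 comparisons. Fgf15 stood at 8.63 to 21.6 in conventionalized, 13.6 to 47.7 in chow, 15.2 to 86.1 in high fat and 0 to 98 in germ-free libraries, all overlapping. Slc40a1 stood at 38.3 to 338 over all libraries, with group means of 119 ± 53.1 (chow), 97.6 ± 70.5 (high fat), 137 ± 126 (conventionalized) and 153 ± 128 (germ-free) (SD, n = 4). Slc10a2 reached at most 17.1, and its mean was too low to be tested in the 2 comparisons with chow.

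**Figure D5:**
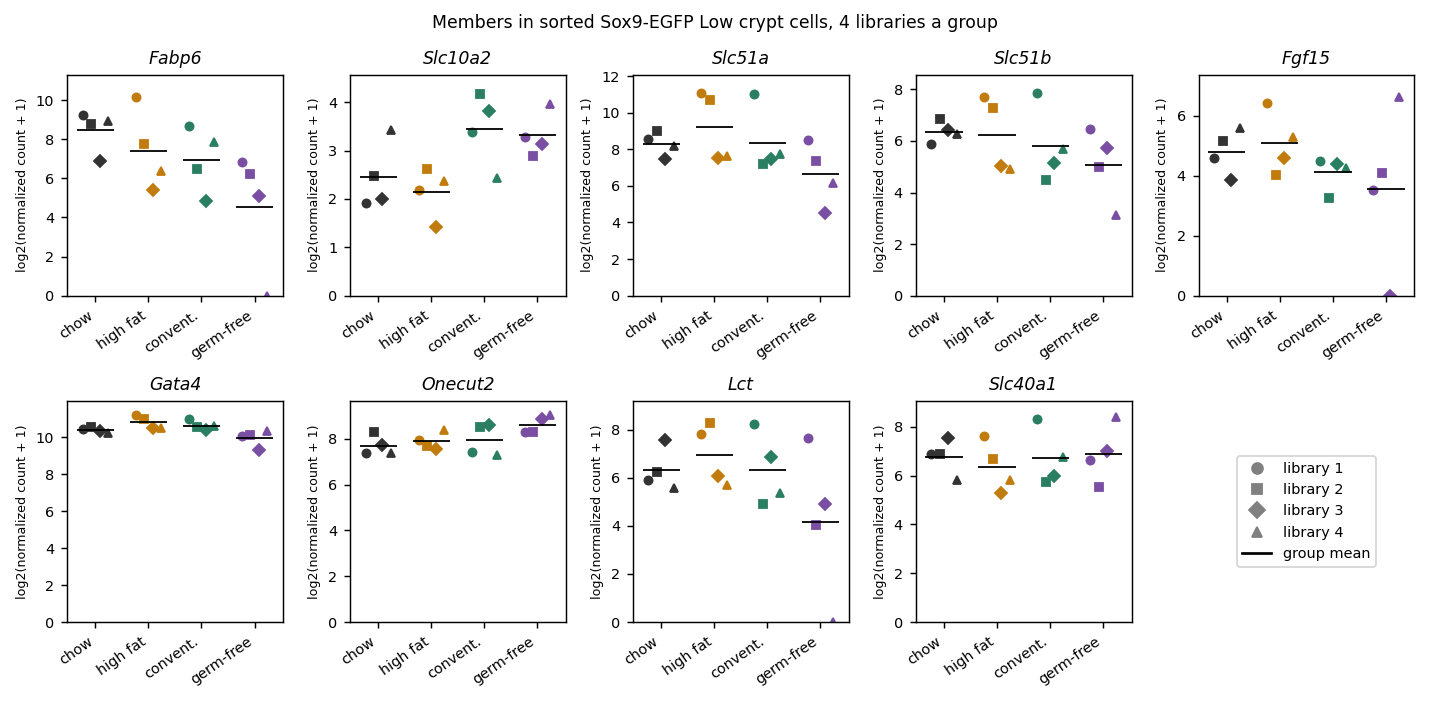
Members in the 16 libraries of sorted Sox9-EGFP Low cells, on a log2(normalized count + 1) axis, with a marker for each library and a line at the group mean. Germ-free Gata4 lies below conventionalized Gata4 without overlap, and single libraries at 0 stand out in germ-free mice for Fabp6, Fgf15 and Lct.

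Other genes of the lists passed the test in the germ-free comparison, where 2.24% of all genes did. Of 23 tested genes of upper intestinal nutrient uptake, 3 were called, all higher in germ-free libraries: Sis, the sucrase of the brush border (log2 difference 2.02, SE 0.36, limma adjusted p 0.0158), Scarb1, a lipid receptor (1.81, SE 0.34, adjusted p 0.0185), and Bco1, which splits carotene (1.76, SE 0.29, adjusted p 0.0129). Of 19 genes of bile acid handling and FXR, Cyp3a11, a bile acid and drug oxidase, was called (2.54, SE 0.52, adjusted p 0.0297), and of 23 regional transcription factors, Foxa1 (1.20, SE 0.28, adjusted p 0.0474). None of 16 iron genes and 13 distal genes was called. Without germ-free library 1 only 1 gene in all was called, so at least 4 of these 5 calls were lost there. The median log2 difference was -0.71 for the ileal members and -0.24 for the proximal members, beside 0.11 for all genes. In the high fat and the conventionalized against chow comparisons no gene of any list was called.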

How the data were processed

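UMI counts of the single-cell samples (10x Chromium) were deposited by the authors, with software 3.0.1 named for set 2, per the file headers. The mRNA table holds a normalized count signal per gene, scaled by the authors before deposit. The sources used here do not give the scaling method. Cell Ranger, STAR, Salmon, DESeq2 and build mm10 are named per the submitters' processing notes. The mRNA libraries were made with an ultra-low input kit, per the labels' protocols.

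A barcode was kept as a cell if it had 500 or more genes, 1000 or more UMIs and a mitochondrial share under 25%. The highest Scrublet scores, 0.8% per 1000 barcodes, were removed as doublets, since the tool's own threshold marked 2 to 26 barcodes a sample. Each set was clustered apart (scanpy 1.11.5, 2000 variable genes, 30 components, 15 neighbours, Leiden resolution 1) without 120 genes of the lists. A cluster could be named only when at least 3 markers of a class were raised at least 2-fold and reached 20 CPM, and is called X-like in the text. UMI sums per sample were tested with edgeR 4.0.16 (quasi-likelihood), and DESeq2 1.42.0 was an alternative. Normalized counts were tested with limma 3.58.1 on log2(value + 1) for genes with a mean of at least 10. P-values were adjusted by Benjamini-Hochberg over all genes tested, with a threshold of 0.05. The 381 table entries without a gene name, 0.0338% to 0.0804% of a library, were left out. Shares of cells were taken after thinning each cell to 2000 UMIs. The tests were checked on simulated data.

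The sets share their number in the labels, and with 2 pairs the deviations of same-numbered samples correlated at 0.696 (epithelial) and 0.637 (enterocyte-like). All members are described. Called genes of the lists are named, at most 5 per list and comparison, with the 3 genes most like each member over clusters with at least 20 cells, among genes at a mean of at least 20 CPM. The members and lists were chosen with earlier results of these data known. Promoter windows come from RefSeq (GRCm38.p6), matched by symbol for 5 of the 9 members. Alternatives covered normalization, filters, pseudocounts, single replicates left out, the replicate block, doublets and the mitochondrial limit. Other tools were Python 3.11.15, numpy 2.4.6, scipy 1.17.1, pandas 2.3.3, anndata 0.12.19, scikit-learn 1.9.0, matplotlib 3.10.9 and R 4.3.3.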

Additional observations from a re-analysis of the deposited data

Results flagged for a closer look

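In 5 of the 36 groups of 4 mRNA libraries formed by 9 members and 4 conditions, a library lay far from the other 3, by Dixon's test at the 95% level. Chance alone marks about 1 group in 20 if values are normally distributed. The test was run on counts that were not on a log scale, and members share libraries, so no excess is read from this number. Fabp6 stood at 1140 in high fat library 1, where the next library had 211.1 and the lowest 41.33 normalized counts. Slc51a stood at 2110 in conventionalized library 1, beside 145.2 to 213.5 in the others. Slc51b stood at 230.7 in the same library, beside 21.36 to 50.27. Fgf15 stood at 97.98 in germ-free library 4, beside 0 to 16.02, and Lct at 200.4 in germ-free library 1, beside 0 to 29.39.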

How the results depend on the processing

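The number of members called was 0 in 68 of 69 other settings. The exception was the knockout comparison in enterocyte-like cells with no filter on low counts, where 1 member, Fgf15, was called (55 of 16176 genes). With the replicate block, 0 members were called in all 5 comparisons, while the genes called numbered 494 (germ-free), 271 (high fat), 165 (conventionalized against chow) and 0 in both single-cell comparisons. The same-numbered mRNA libraries share only a number: their deviations correlated at -0.128 to 0.4, 0.044 to 0.219 and -0.354 to 0.463, and 1 of 4 correlated best with its own number in each comparison. Leaving out a library left 0 members called, with 1 to 684 genes called for germ-free, 0 to 2590 for high fat and 0 to 6 for conventionalized against chow, 0 to 2 in epithelial and 0 to 1 in enterocyte-like cells. With no filter 317 genes were called for high fat and 39 for conventionalized against chow. Of 580 member differences under other settings, 536 kept their sign and 44, none called, did not. Between Fabp6-rich and Fabp6-free cells, 6 members were 2-fold apart in every sample, and 2 with at least 2 Fabp6 UMIs; the gates were chosen after seeing the data, and 4 of the 6 passed the level filter through 1 kind of cell. Of 72 shares of cells, 58 moved beyond their counting interval when cells were thinned to 4000 UMIs or not thinned. Such a share tends to rise with the UMIs kept per cell, so these moves mostly follow from the setting and nothing is read from them. Low UMI numbers limit Fgf15, Slc10a2 and Slc40a1.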
